A study of Mus musculus with 8 samples.

Results

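The antioxidant genes governed by Nrf2 were followed through chronic cerebral hypoperfusion in the mouse corpus callosum. The group was set by name and holds 10 of the 25239 gene symbols with deposited values. It consists of *Nfe2l2*, the gene of Nrf2 itself, and the targets *Hmox1*, *Nqo1*, *Gclc*, *Gclm*, *Slc7a11*, *Srxn1*, *Txnrd1*, *Prdx1* and *Osgin1*. All 10 genes were above the filter on low values that left 18123 genes for testing.

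Nrf2 is a transcription factor that is kept scarce in resting cells because Keap1 binds it and hands it to the Cul3 ubiquitin ligase for destruction. Oxidants and electrophiles modify cysteines of Keap1, Nrf2 then escapes, enters the nucleus, pairs with a small Maf protein and binds antioxidant response elements. Its targets make and spend glutathione, reduce thioredoxin and peroxiredoxins, break down heme and reduce quinones. In the brain, these genes are known best from astrocytes, and *Hmox1* also from microglia and macrophages. Because the factor is governed mainly through the stability of its protein, the mRNA of *Nfe2l2* is not a measure of Nrf2 activity.

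The tissue, a large bundle of myelinated axons between the hemispheres of the brain, came from male C57BL/6 mice (C57BL/6J in the methods) aged 8 to 12 weeks. The WT mice were purchased and the TRPA1-KO mice came from a backcrossed line. Bilateral common carotid artery stenosis (BCAS) narrows each carotid artery with a microcoil and lowers cerebral blood flow, and sham mice had the operation without coils. Each of the labels, WT and TRPA1-KO (mice lacking the TRPA1 channel in the whole body), had 1 BCAS library on each of days 7, 10 and 14 and 1 sham library on day 14. The 3 days therefore stood in as replicates of a label, their spread mixes the effect of the day with that of the animal, and both sham libraries formed 1 reference. The comparison of BCAS-operated mice of the labels asks how the loss of an oxidant-sensitive channel alters the tissue, and the comparisons with sham ask what the operation alters. Days 7 and 10 have no sham of the same day, and the reference mixes both labels. Against sham, the operation therefore cannot be told apart from the day or, for a single label, from the label.

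The 8 libraries held between 7896071 and 12952093 reads, and a count of 0 allows a level of up to 0.235 to 0.378 (CPM, reads scaled to a common library size). *Trpa1* had 10, 11, 3 and 7 reads in the libraries labelled TRPA1-KO and 1, 0, 0 and 0 reads in those labelled WT, so the targeted gene went against the labels. Libraries are therefore named by label, and which mice they came from cannot be told from these values, and values per gene do not show which exons the reads cover. Oligodendrocyte markers had the highest summed level of the 13 marker lists in each library, between 12456 and 16660 CPM, so the defining cells of the labelled tissue were present. Markers of neurons were detected too, with 1408 to 1883 CPM for cortical excitatory neurons and 425 to 1056 CPM for striatal projection neurons. In bulk tissue, more cells of a type and more RNA per cell cannot be told apart.

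The antioxidant response element is recognised through a short core, TGACNNNGC, which was searched for on both strands in the RefSeq promoter windows (GRCm38.p6, from 250 bases before to 50 bases after the start). Of the 8 member genes matched in that table, 5 held the core (*Nfe2l2*, *Srxn1*, *Gclm*, *Prdx1* and *Txnrd1*), against 14.0% of 27025 gene symbols. *Hmox1* and *Gclc* were not matched. The AP-1 motif TGACTCA, whose letters can overlap the core, was in 3 of the 8 genes, against 5.95% of the gene symbols. The stretches around 4 of the cores are shown because they are the sequence that gives the group its name, on the strand of the gene, 5′ to 3′, with the core in capitals.
*Nfe2l2* (chr2:75704870-75704913, minus strand, core from position -240 relative to the start): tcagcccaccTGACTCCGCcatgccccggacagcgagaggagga
*Gclm* (chr3:122245398-122245456, plus strand, core on the reverse strand from position -134): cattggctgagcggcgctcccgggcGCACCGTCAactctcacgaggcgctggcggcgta
*Prdx1* (chr4:116685441-116685499, plus strand, core on the reverse strand from position -133, overlapping AP-1): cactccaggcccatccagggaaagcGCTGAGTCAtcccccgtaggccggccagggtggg
*Txnrd1* (chr10:82859089-82859147, plus strand, core on the reverse strand from position -92): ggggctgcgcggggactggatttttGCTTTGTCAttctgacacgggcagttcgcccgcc
The stretch of *Txnrd1* belongs to 1 of its 3 promoters in the table. The core of *Srxn1* began 29 bases into the transcript. A match is a description of letters and not of binding, and distal elements were not searched.

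Per kilobase of exon (GENCODE M21), the mean levels of the members spanned a wide range over the 8 libraries. *Prdx1* stood highest at 40.4 ± 4.54 CPM per kilobase (SD, n = 8), followed by *Srxn1* at 28.0 ± 2.1 and *Gclc* at 17.7 ± 0.781. *Txnrd1* had 8.70 ± 0.599 and *Gclm* 6.15 ± 0.787 CPM per kilobase. *Nfe2l2* (4.73 ± 1.48) overlapped with *Gclm*, and *Hmox1* (4.75 ± 6.26) had a spread larger than its mean and could not be placed in the order. *Nqo1* (2.32 ± 0.564) and *Slc7a11* (2.23 ± 0.382) overlapped in the same way, and *Osgin1* stood lowest at 0.230 ± 0.176 CPM per kilobase. *Gclc*, *Txnrd1* and *Srxn1* were the steadiest, with 1.13, 1.23 and 1.26 times from the lowest to the highest library. For *Hmox1* this was 10.6 times, and *Osgin1* had fewer than 3 reads in 3 libraries, which gives no usable ratio.

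**Figure D1:**
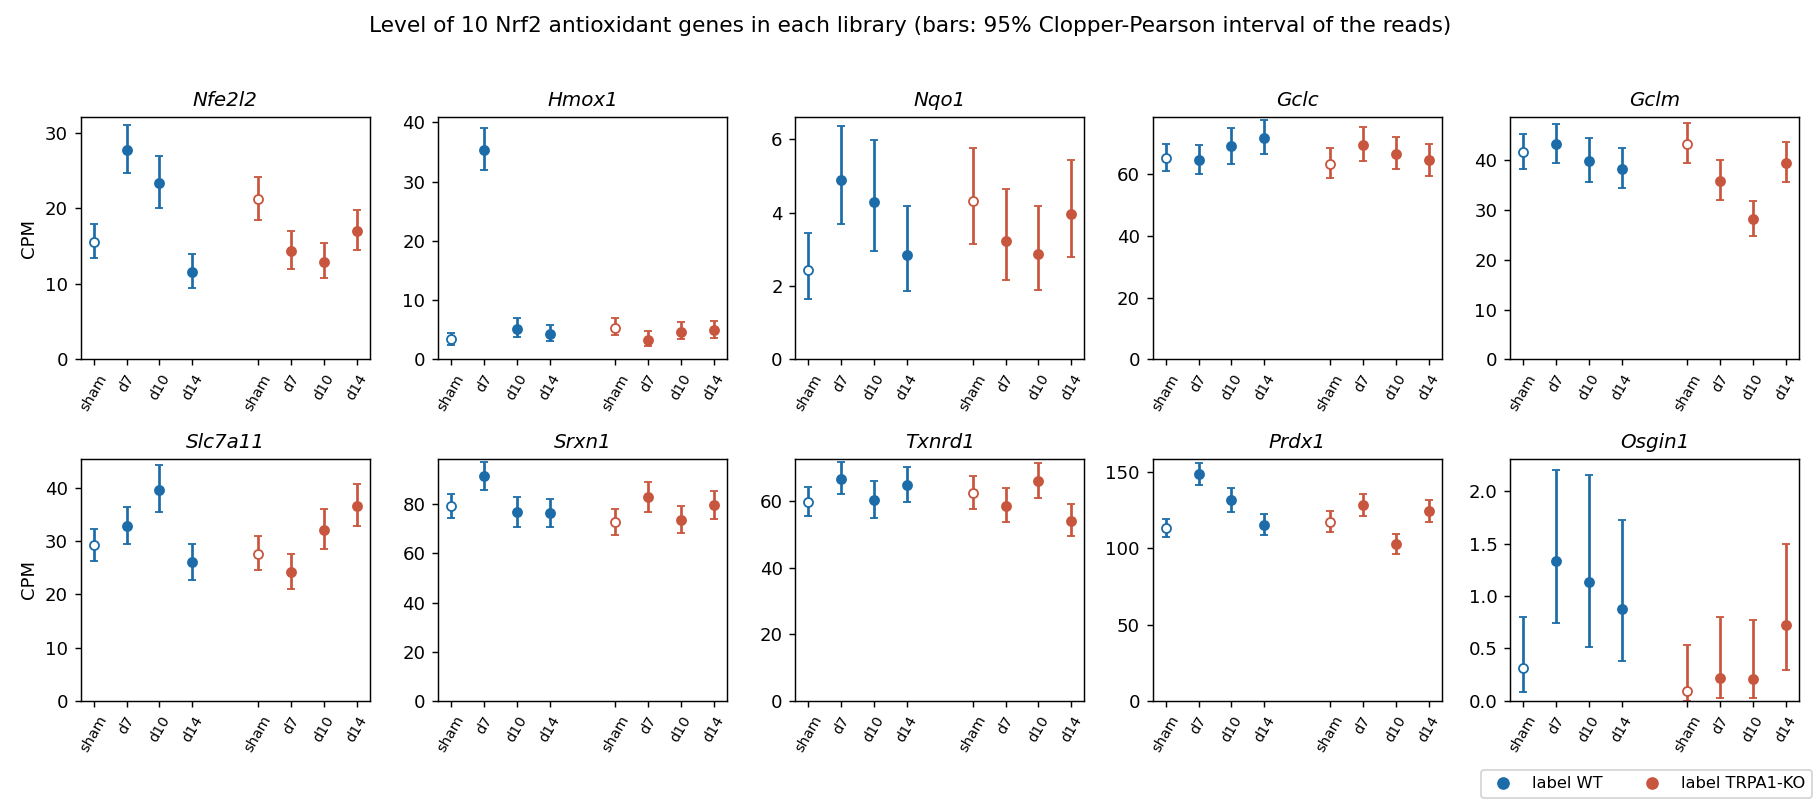
Level of each of the 10 genes in CPM (vertical axes, each from 0) in the 8 libraries, with sham as open points, BCAS as filled points, WT label in blue and TRPA1-KO label in red. Bars are 95% Clopper-Pearson intervals of the reads. The day 7 BCAS library labelled WT stands at 35.4 CPM for *Hmox1*, and the other 7 libraries lie between 3.3 and 5.37 CPM.

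*Nfe2l2* (chr2:75675513-75704641, minus strand, GRCm38) had both its highest and its lowest levels after BCAS with the label WT. With the label WT, its level was 15.6 CPM in sham and, after BCAS, 27.7 CPM on day 7, 23.3 CPM on day 10 and 11.5 CPM on day 14. With the label TRPA1-KO, it was 21.2 CPM in sham and 14.4, 12.9 and 17.0 CPM on the same days. Days 7 and 10 with the label WT were the highest of the 8 libraries and day 14 was the lowest, so the groups overlapped. The BCAS libraries labelled WT exceeded those labelled TRPA1-KO by 0.40 ± 0.27 (SE) on the log2(CPM + 1) scale (limma adjusted p = 0.98, exact permutation p = 0.40, two-sided). Without the day 14 library labelled WT the difference was 0.76 (limma adjusted p = 0.11), and without the day 7 library labelled WT it was 0.16. *Nfe2l2* overlaps *Gm24996* on the same strand.

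*Hmox1* (chr8:75093621-75100589, plus strand) encodes heme oxygenase 1, the inducible enzyme that splits heme into iron, carbon monoxide and biliverdin. The libraries labelled WT had 3.36 CPM in sham and, once BCAS was in place, 35.4 CPM on day 7, 5.17 CPM on day 10 and 4.28 CPM on day 14. The libraries labelled TRPA1-KO had 5.37 CPM in sham and 3.3, 4.70 and 4.89 CPM on those days. A single library was high: the day 7 BCAS library labelled WT, with 398 reads (95% Clopper-Pearson interval 32.0 to 39.0 CPM, counting error only), against 30 to 56 reads in the others. On day 7, the level with the label WT was 10.6 times that with the label TRPA1-KO, and there is no replicate of that day. Set against the sham mean, the log2 difference in that library was 2.79, the 37th largest among 15152 genes that averaged 1 CPM or more.

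The difference between the BCAS groups in *Hmox1* (14.9 ± 17.7 against 4.31 ± 0.845 CPM, SD, n = 3 each) was 1.01 ± 0.60 (SE) in log2(CPM + 1) (limma adjusted p = 0.98, exact permutation p = 0.40). Fitted to reads, it was 1.82 in log2 by edgeR (adjusted p = 0.91) and 1.79 by DESeq2 (adjusted p = 0.999). It rested on the day 7 library labelled WT, since without it the difference was 0.12. Without the day 14 library labelled WT the difference was 1.51 (limma adjusted p = 0.40).

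The same day 7 library was also the highest for all 6 markers of microglia, the resident macrophages of the brain, and for 21.9% of all genes tested. Their summed level was 745 CPM there, 476 CPM on day 10 with the label WT and between 278 and 384 CPM in the other 6 libraries. Their difference between the BCAS groups had a median of 0.57 in log2, with 2 of 6 markers at an unadjusted limma p under 0.05 (4.2% of all 18123 genes) and none past the adjustment. All 4 fibroblast markers were highest in that library as well (31.8 CPM summed, against 11.5 to 25.3 CPM elsewhere). The summed level of 4 border macrophage markers was 7.03 CPM, within the range of the other libraries (5.12 to 8.95 CPM). Of these, *F13a1* was highest there (2.76 CPM, against 0.534 to 1.33 CPM elsewhere) and *Cd163* lowest (1.33 CPM, against 1.39 to 3.45 CPM elsewhere). *Mrc1* and *Lyve1* lay within the ranges of the other libraries. Hemoglobin transcripts, a sign of blood in the tissue, summed to 4.27 CPM there and to between 1.11 and 202 CPM elsewhere. The part of microglia or fibroblasts in the level of *Hmox1* was not tested.

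**Figure D2:**
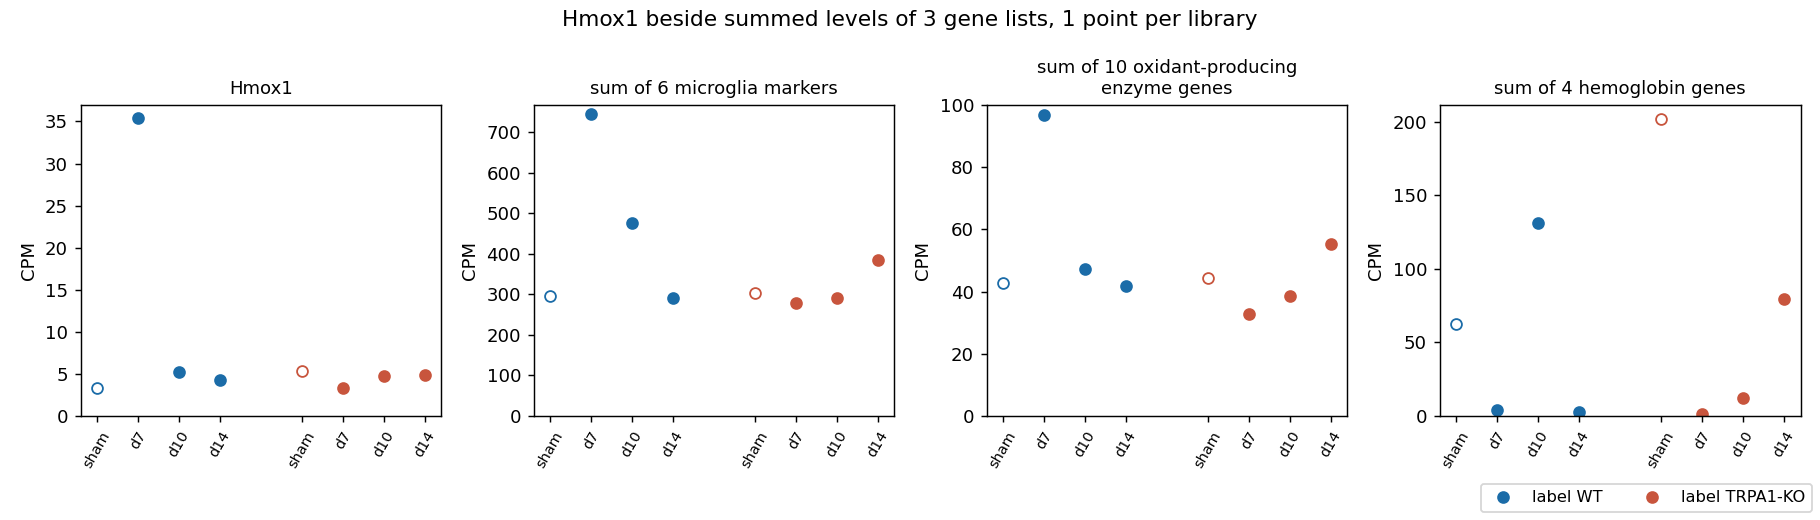
*Hmox1* beside the summed CPM of 6 microglia markers, 10 genes of oxidant-producing enzymes and 4 hemoglobin genes, 1 point per library, sham open and BCAS filled, on linear axes from 0. The day 7 BCAS library labelled WT is the highest in the first 3 panels (35.4, 745 and 96.9 CPM) and low in the last (4.27 CPM).

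*Nqo1* (chr8:107388225-107403206, minus strand) encodes the quinone reductase whose mRNA is often used as a readout of Nrf2. It rested on few reads here, 26 to 55 per library. Its levels were 2.43 CPM in sham and 4.89, 4.28 and 2.85 CPM on days 7, 10 and 14 with the label WT. With the label TRPA1-KO they were 4.32 CPM in sham and 3.23, 2.88 and 3.95 CPM after BCAS. The sham libraries alone spanned most of this range, and the groups overlapped. The difference between the BCAS groups was 0.19 ± 0.22 (SE) in log2 (limma adjusted p = 0.98, exact permutation p = 0.50).

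The genes that supply glutathione, the main thiol of the cell, spanned less than *Nfe2l2* (2.41 times), *Hmox1* and *Nqo1* (2.02 times). From the lowest to the highest library, *Gclc* spanned 1.13 times, but *Gclm* (1.54) and *Slc7a11* (1.64) spanned more than *Prdx1* (1.44). *Gclc* (chr9:77754535-77794485, plus strand), the catalytic subunit of the ligase that starts glutathione synthesis, had 65.3 CPM in sham and 64.6, 68.9 and 71.8 CPM on days 7, 10 and 14 with the label WT. Under the label TRPA1-KO, sham had 63.4 CPM and the BCAS libraries had 69.5, 66.6 and 64.5 CPM. This was the narrowest span of the 10 genes. Its differences in the 4 comparisons lay between 0.032 and 0.087 in log2.

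*Gclm* (chr3:122245557-122270732, plus strand), the subunit that modifies that ligase, was lower in each BCAS library labelled TRPA1-KO than in either sham library. It had 41.5 CPM in sham and 43.1, 39.8 and 38.2 CPM after BCAS with the label WT, and 43.3 CPM in sham and 35.8, 28.1 and 39.4 CPM after BCAS with the label TRPA1-KO. The day 10 library labelled TRPA1-KO was the lowest of the 8. The BCAS libraries labelled TRPA1-KO differed from sham by -0.30 ± 0.13 (SE) in log2 (unadjusted limma p = 0.038, adjusted p = 1, exact permutation p = 0.20). Without the day 10 library the difference was -0.17, and without it or without either sham library the unadjusted limma p was above 0.05. *Gclm* overlaps *Gm17494* on the opposite strand and *Gm6061* on the same strand, and whether the counting used strand is not given in the sources used here.

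*Slc7a11* (chr3:49892526-50443614, minus strand) encodes the cystine transporter that feeds glutathione synthesis. It was highest on day 10 with the label WT (39.7 CPM) and on day 14 with the label TRPA1-KO (36.6 CPM). The other BCAS libraries had 32.8 and 26.0 CPM (WT label, days 7 and 14) and 24.2 and 32.1 CPM (TRPA1-KO label, days 7 and 10), and sham had 29.3 and 27.6 CPM. The order of the days thus differed between the labels, with 1 library for each. The exons of *Slc7a11* cover 13922 bases, and the span of the gene overlaps that of 5 other genes on either strand. Whether their exons overlap, and so whether reads are shared, was not examined.

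The thioredoxin and peroxiredoxin system removes peroxides. *Prdx1* (chr4:116685544-116700822, plus strand), an abundant peroxiredoxin, had 114 CPM in sham and 149, 132 and 116 CPM on days 7, 10 and 14 with the label WT. Under the label TRPA1-KO, sham had 118 CPM and the BCAS libraries had 128, 103 and 124 CPM. Only days 7 and 10 with the label WT exceeded every library of the other label, and the day 14 library did not. The difference between the BCAS groups was 0.15 ± 0.11 (SE) in log2 (limma adjusted p = 0.98, exact permutation p = 0.40), and 0.24 without the day 14 library labelled WT (limma adjusted p = 0.49). It was 0.063 without the day 7 library labelled WT and 0.054 without the day 10 library labelled TRPA1-KO.

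*Srxn1* (chr2:152105516-152111376, plus strand), sulfiredoxin, which repairs overoxidised peroxiredoxins, had 79.2 CPM in sham and 91.2, 76.7 and 76.3 CPM on the 3 days with the label WT, and 72.7, 82.8, 73.7 and 79.5 CPM in the same order with the label TRPA1-KO. *Txnrd1* (chr10:82833951-82897712, plus strand), cytosolic thioredoxin reductase, had 59.9, 66.8, 60.4 and 64.8 CPM under WT and 62.5, 58.7, 66.1 and 54.2 CPM under TRPA1-KO, in that order again. It overlaps *Eid3*, *Gm38560* and *Gm47073*. In both genes the groups overlapped. Both were highest in the day 7 BCAS library labelled WT, but for *Txnrd1* the day 14 library labelled WT became the highest when library medians were equalized. Their differences between the BCAS groups were 0.046 ± 0.090 (SE) and 0.10 ± 0.090 (SE) in log2.

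*Osgin1* (chr8:119434124-119446256, plus strand), an oxidative stress induced growth inhibitor, was the least abundant member and the only one whose BCAS groups did not overlap. With the label WT it had 0.313 CPM in sham and 1.33, 1.13 and 0.878 CPM on days 7, 10 and 14. Under the label TRPA1-KO, sham had 0.0959 CPM and the BCAS libraries had 0.223, 0.214 and 0.728 CPM. In the same order, these levels stand for 4, 15, 9 and 8 reads and for 1, 2, 2 and 7 reads, so 3 libraries were below the floor of 3 reads. The lowest BCAS library labelled WT and the highest labelled TRPA1-KO, both from day 14, differed by 1 read, and their intervals overlap.

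The BCAS libraries labelled WT had 1.12 ± 0.229 CPM (SD, n = 3) of *Osgin1*, those labelled TRPA1-KO had 0.388 ± 0.295 CPM (SD, n = 3), and sham had 0.204 ± 0.153 CPM (SD, n = 2). The difference between the BCAS groups was 0.62 ± 0.20 (SE) in log2(CPM + 1), with unadjusted limma p = 0.013, adjusted p = 0.98 and exact permutation p = 0.10, the smallest that 3 against 3 libraries can give. Against sham, the BCAS libraries labelled WT differed by 0.81 ± 0.22 (unadjusted limma p = 0.0033, adjusted p = 0.79, exact permutation p = 0.10) and those labelled TRPA1-KO by 0.19 ± 0.22 (exact permutation p = 0.60). Both comparisons use the same sham libraries. The pseudocount compresses a gene this low, and with a pseudocount of 0.1 the differences were 1.46 between the BCAS groups and 2.08 for the label WT against sham. Fitted to reads, edgeR gave 1.49 and 2.34 for these. Leaving out the day 10 library labelled TRPA1-KO brought its unadjusted limma p between the BCAS groups above 0.05.

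The question of the study's main comparison, BCAS with the label WT against BCAS with the label TRPA1-KO, can be read over the group. All 10 members had a higher mean log2 level with the label WT, with a median difference of 0.17, against 0.0010 over all genes tested, of which 50.3% were higher. The differences ranged from 0.032 for *Gclc* to 1.01 for *Hmox1*. By single genes, 1 of 10 members (*Osgin1*) had an unadjusted limma p under 0.05, a share to set against 4.2% of all genes (761 of 18123). Groups did not overlap for 1 of 10 members, against 9.21% of all genes. No member had an adjusted limma p under 0.05, against 0.0166% of all genes. In tests of the reads themselves, edgeR (quasi-likelihood) put 2 members, *Osgin1* and *Hmox1*, at an unadjusted p under 0.05 and DESeq2 put 0 there. Of all 18123 genes, edgeR put 948 and DESeq2 595 there. The lowest adjusted p of a member was 0.91 by edgeR. Leaving out the day 14 library labelled WT raised the limma count to 4 members (*Osgin1*, *Hmox1*, *Nfe2l2* and *Prdx1*), and leaving out the day 10 library labelled TRPA1-KO lowered it to 0. Over all genes, the unadjusted limma calls ranged from 325 to 1846 of 18123 with a library left out, so the share of 4.2% does not belong to these counts. The median over the members was 0.072 without the day 7 library labelled WT and 0.11 without the day 10 library labelled TRPA1-KO, and up to 0.26 with another library left out.

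Several marker lists were higher with the label WT. Between the BCAS groups, the median log2 difference was 0.57 for microglia, 0.32 for fibroblasts and 0.27 for endothelial cells. It was 0.24 for ependymal or choroid plexus cells, 0.19 for oligodendrocyte precursors and 0.12 for mural cells. It was 0.043 for hemoglobin genes and negative for oligodendrocytes, border macrophages and the neuron lists. For astrocyte markers it was 0.30, with 5 of 6 higher with the label WT. Of these astrocyte markers, 1 of 6 had an unadjusted limma p under 0.05 (4.2% of all genes) and 0 passed the adjustment. Their summed level was 5161 and 4993 CPM on days 7 and 10 with the label WT, 4857 CPM on day 14 with the label TRPA1-KO and 3590 to 4056 CPM in the other 5 libraries. Set against sham, their median was 0.27 for WT-labelled libraries and -0.013 for TRPA1-KO-labelled ones. The part of any of these cell types in the levels of the members was not tested.

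Against sham, the BCAS libraries labelled WT were higher for 9 of the 10 members, with a median log2 difference of 0.14 and *Gclm* as the exception at -0.070. *Osgin1* was the 1 member with an unadjusted limma p under 0.05 (5.45% of all genes) and the 1 whose values did not overlap with sham (19.9% of all genes). No member had an adjusted p under 0.05 by limma, which called 0% of all genes, by edgeR or, where it gave one, by DESeq2. Unadjusted, edgeR counted 2 members and DESeq2 1, and the limma share of 5.45% does not belong to these counts. Without the day 14 library labelled WT, limma counted 4 members, *Nfe2l2* and *Prdx1* among them, and the median over the members was 0.30. Without the day 7 library it was 0.087. The calls over all genes also change with the library left out, so the share of 5.45% does not belong to the count of 4.

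Several cell marker lists differed between BCAS and sham. Markers of striatal projection neurons summed to 425 to 729 CPM in the 6 BCAS libraries, below both sham libraries (784 and 1056 CPM). Their median log2 difference from sham was -0.86 with the label WT (5 of 5 lower at an unadjusted limma p under 0.05) and -0.54 with the label TRPA1-KO (4 of 5), with 0 past the adjustment. Oligodendrocyte markers had medians of -0.25 (3 of 8 lower at that threshold) and -0.24 (2 of 8). Of these, *Mog*, a myelin surface protein, fell by 0.73 on the log2 scale with the label TRPA1-KO (limma adjusted p = 0.046), the 1 gene past the adjustment in that comparison. Hemoglobin genes had medians of -2.49 (0 of 4 lower at that threshold) and -2.53 (2 of 4). Their sum in the day 10 BCAS library labelled WT, 131 CPM, lay between the sham libraries (62.4 and 202 CPM). Microglia markers had medians of 0.65 (2 of 6 higher at that threshold) and 0.070 (0 of 6), and fibroblast markers 0.53 (1 of 4) and 0.28 (0 of 4). The part of the tissue's cell makeup in the comparisons of the members with sham was not tested.

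The BCAS libraries labelled TRPA1-KO were higher than sham for 6 of the 10 members, with a median log2 difference of 0.026 (with library medians equalized, *Hmox1* turned to 0.0027 and made it 7). This median was -0.033 without the sham library labelled WT, -0.018 without the day 14 library labelled TRPA1-KO and 0.060 without the day 10 library of that label. *Gclm* was the 1 member with an unadjusted limma p under 0.05 (2.74% of all genes) and without overlap (18.6% of all genes). None had an adjusted p under 0.05, against 0.00552% of all genes. Unadjusted counts were 1 by edgeR and 0 by DESeq2, and the limma share of 2.74% does not belong to these. *Hmox1* differed from sham by -0.0031 ± 0.64 (SE) in log2 and *Nfe2l2* by -0.29 ± 0.29 (SE).

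Taking the BCAS libraries of both labels together, 8 of the 10 members were higher than sham, with a median log2 difference of 0.090 (0.053 without the day 7 library labelled WT). *Osgin1* had an unadjusted limma p under 0.05 (difference 0.50 ± 0.20 SE, unadjusted limma p = 0.026, exact permutation p = 0.18, where 0.036 is the smallest possible), against 3.67% of all genes. No member was free of overlap (6.19% of all genes), and no member or other gene (0%) had an adjusted limma p under 0.05. The edgeR and DESeq2 tests gave an unadjusted p under 0.05 for 0 members.

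**Figure D3:**
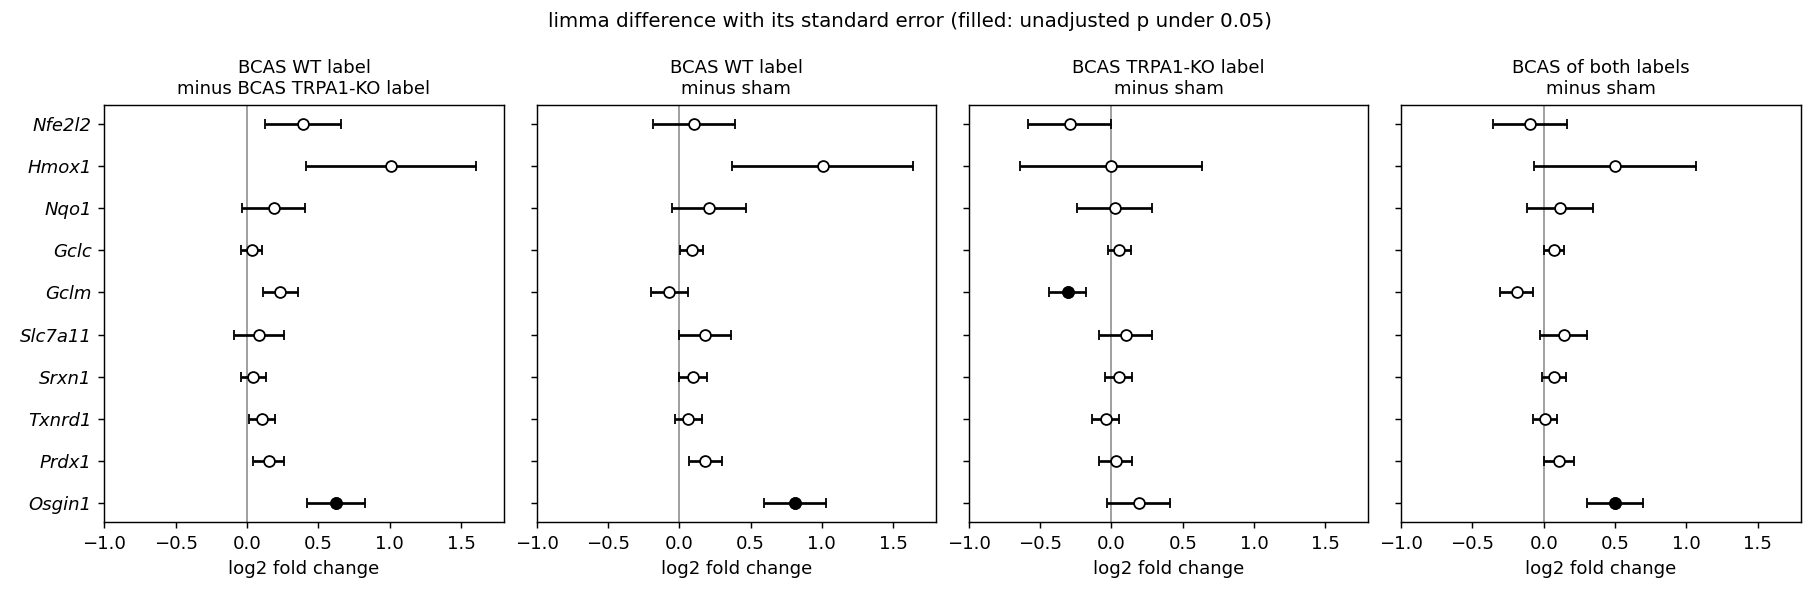
Difference of each gene in the 4 comparisons (horizontal axes, log2 fold change of CPM + 1) with its limma standard error. Filled points have an unadjusted p under 0.05: *Osgin1* in 3 comparisons and *Gclm* in the comparison of the TRPA1-KO label with sham. No point has an adjusted p under 0.05.

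The values by library show where the group differed from sham, which was taken on day 14 only. In the day 7 BCAS library labelled WT, all 10 members were above the sham mean, with a median log2 difference of 0.31. Over all genes, that median difference was 0.0024 and 50.5% of genes were above the sham mean. The median level over all genes in this library lay 0.074 in log2 above the mean of the 8 library medians, the largest such shift. With medians equalized, 8 members were above sham (not *Gclc* and *Gclm*), with a median of 0.24. Without equalizing, the median of the members was 0.21 on day 10 (8 members above) and 0.0014 on day 14 (6 members above) with that label. With the label TRPA1-KO, the medians were -0.036, -0.012 and 0.087, with 4, 5 and 7 members above. Of all genes, 48.0% to 49.1% were above the sham mean in these libraries and those of days 10 and 14 labelled WT. The day 7 library labelled WT was the highest of the 8 for 7 members (*Nfe2l2*, *Hmox1*, *Nqo1*, *Srxn1*, *Txnrd1*, *Prdx1* and *Osgin1*; 6 with medians equalized, without *Txnrd1*), while it was the highest for 21.9% of all genes tested, and *Gclc*, *Gclm* and *Slc7a11*, the 3 genes of glutathione supply, were highest elsewhere. *Nfe2l2* had a log2 difference from sham of 0.58, 0.34 and -0.61 on days 7, 10 and 14 with the label WT.

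**Figure D4:**
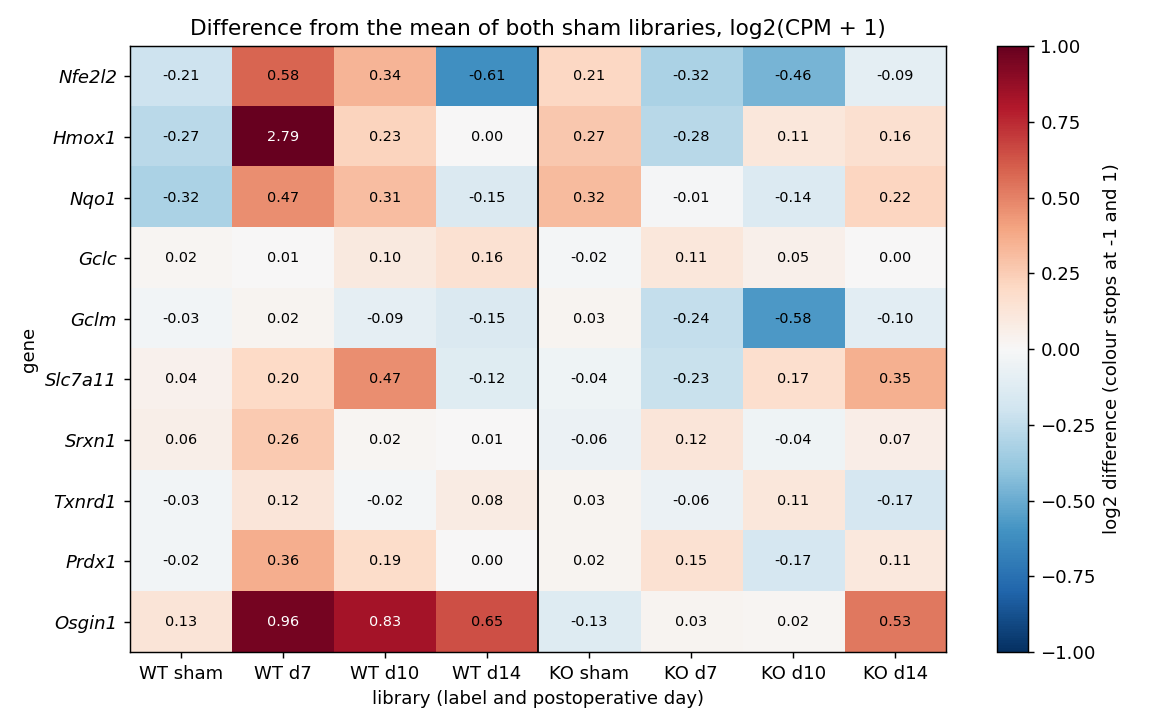
Difference of each of the 10 genes (rows) from the mean of both sham libraries in each library (columns), in log2(CPM + 1), with red above and blue below sham and colour stopping at -1 and 1. The day 7 BCAS library labelled WT (WT d7) is above 0 in all 10 rows (8 with library medians equalized), with 2.79 for *Hmox1*, and the day 14 library with that label has -0.61 for *Nfe2l2*.

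Compared day by day, 9 of the 10 members were higher with the label WT than with the label TRPA1-KO on day 7 (51% of all genes were), 9 on day 10 (49.6%) and 3 on day 14 (48.7%). The median log2 difference was 0.34, 0.32 and -0.083, and with library medians equalized 0.24, 0.32 and -0.033, with 9, 9 and 4 members higher. *Gclc* was the exception on day 7 and *Txnrd1* on day 10. On day 14, only *Gclc*, *Txnrd1* and *Osgin1* were higher with the label WT. *Osgin1* alone was higher with the label WT on all 3 days, as were 10.6% of all genes. Each day has 1 library per label, so these values carry no test.

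Further genes of the pathway were read from lists chosen for their roles. Of 15 regulators and partners of Nrf2, among them *Keap1*, *Cul3*, the small Maf genes and the competing repressor *Bach1*, 0 had an unadjusted limma p under 0.05 in any comparison, and their median log2 difference between the BCAS groups was -0.032. *Keap1*, which holds Nrf2 back, ranged from 62.8 to 73.9 CPM over the 8 libraries. Of 18 glutathione enzymes and transporters, 16 were higher with the label WT (median 0.14), as were 50.3% of all genes. The median of this list against the sham mean was 0.20, 0.098 and 0.0059 on days 7, 10 and 14 with the label WT. With the label TRPA1-KO it was -0.0063, -0.11 and 0.033. Of the 18, 2 had an unadjusted limma p under 0.05 between the BCAS groups (4.2% of all genes). These were *Gstm1* (0.35 ± 0.12 SE), a glutathione transferase, and *Chac1* (0.40 ± 0.17 SE), which degrades glutathione (limma adjusted p = 0.98 for each). In the label WT against sham, *Glrx* (0.38), a glutaredoxin, and *Gstp1* (-0.45), a transferase, had such a p in opposite directions (5.45% of all genes). With the BCAS libraries of both labels against sham, *Gstt1* (0.42), another transferase, and *Glrx* (0.31) had one (3.67% of all genes, limma adjusted p = 0.9998 for each).

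Of 16 genes for thioredoxin, peroxide and superoxide enzymes, 13 were higher with the label WT (median 0.087), as were 50.3% of all genes. Of these 16, 0 had an unadjusted limma p under 0.05 in any comparison, as did 0 of 6 genes for the supply of NADPH. Among 10 genes of heme and iron handling, the transferrin receptor *Tfrc* had an unadjusted limma p under 0.05 between the BCAS groups (0.19 ± 0.075 SE). Among 13 genes of detoxification and efflux so did *Esd* (0.21 ± 0.091 SE). Over all genes this share was 4.2%. No gene of these lists had an adjusted limma p under 0.05 in any of the 4 comparisons.

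Of 10 genes for enzymes that produce oxidants, mainly the subunits of the phagocyte NADPH oxidase, 9 were tested. Of these, 7 were higher with the label WT (median log2 difference 0.35), as were 50.3% of all genes. *Ncf1*, a cytosolic subunit of that oxidase, had an unadjusted limma p under 0.05 between the BCAS groups (0.89 ± 0.38 SE, adjusted p = 0.98) and in the label WT against sham (1.08 ± 0.41 SE, adjusted p = 0.90). Over all genes these shares were 4.2% and 5.45%. Here too the day 7 library labelled WT stood apart, with a summed level of 96.9 CPM against 32.8 to 55.4 CPM. The median log2 difference from sham was 1.16 there, and 7 of the 9 genes had their highest value of the 8 libraries there (21.9% of all genes). This is the library in which the microglia markers and *Hmox1* were highest.

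**Figure D5:**
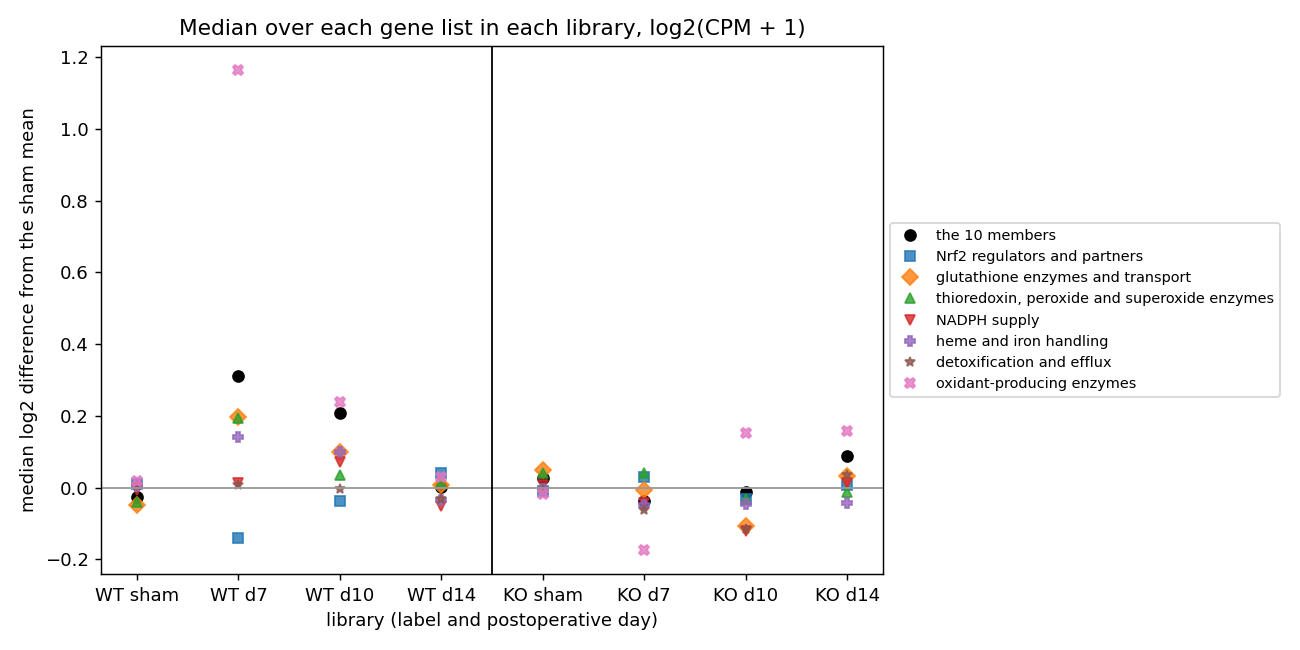
Median difference from the sham mean (vertical axis, log2 of CPM + 1) over the 10 members and over each of 7 other gene lists, in each of the 8 libraries (horizontal axis). On day 7 with the label WT (WT d7) the members stand at 0.31 and the oxidant-producing enzymes at 1.16. The regulators of Nrf2 stand at -0.14 there, with 5 of 15 above the sham mean and 4 of 15 at their highest of the 8 libraries (21.9% of all genes).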

How the data were processed

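RNA-seq of the corpus callosum was analysed in 8 libraries. The methods state that polyadenylated RNA was sequenced, reads were mapped to GRCm38 with HISAT, counted with subread, and normalized with edgeR; annotation, strand setting and filters are not given in the sources used here. The deposited signal is reads per gene over an edgeR-adjusted library size, in CPM and not log-transformed. All values (100%) were whole multiples of 1 read (tolerance 0.01), so reads were recovered. Groups follow the deposited labels. Per the methods, a data point is an extract of 1 mouse. The p-values therefore rest on a spread between mice that mixes the animal with the day in the BCAS groups and with the label in sham.

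Two-sided tests on log2(CPM + 1) used limma version 3.58.1 (lmFit, eBayes with trend, R version 4.3.3) over the 18123 of 25239 genes whose mean reached 0.1 CPM, with Benjamini-Hochberg adjustment. The labels were compared over 6 BCAS libraries, and with sham in 1 fit of all 8 libraries. Exact permutation tests over libraries were run per member. Alternatives were a pseudocount of 0.1, no filter, a filter at a mean of 1 CPM, equalized library medians, edgeR version 4.0.16 (quasi-likelihood) and DESeq2 version 1.42.0 on the recovered reads, each library left out, all 8 in 1 fit, and the day as a replicate block. The tests were also run on simulated counts without an effect of the day and with large changes in well-expressed genes only. That run does not show how they perform for small differences or low levels in this design. Intervals and floors cover counting error only. Positions and exon lengths come from GENCODE M21, promoters from RefSeq. All 10 members are named. Of the pathway lists, genes with an unadjusted limma p under 0.05 were named, up to 3 per list and comparison, along with *Keap1*. Marker lists are given mainly by counts, medians and sums. Members and lists were chosen with earlier results of these data known.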

Additional observations from a re-analysis of the deposited data

Results flagged for a closer look

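*Osgin1* was picked out because its level in the BCAS libraries differed between the labels, by 0.62 in log2(CPM + 1). Both labels were set against the same sham libraries, which cancel out, so this is a difference in level after BCAS. Whether the response to BCAS differed between the labels was not tested. Each label had 1 sham library, with 4 reads of *Osgin1* for the label WT and 1 read for the label TRPA1-KO. All 3 BCAS libraries labelled WT were above all 3 labelled TRPA1-KO, as they were, in either direction, for 9.21% of all genes. For the difference of 0.62, the exact permutation p was 0.10, the unadjusted limma p was 0.013 and the adjusted limma p was 0.98. The levels after BCAS rest on 8 to 15 reads against 2 to 7.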

How the results depend on the processing

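No member had an adjusted p under 0.05 in any comparison under any alternative that gave one. Outside the fits that leave out a library, the medians over the members moved by less than 1 SD of the members' medians over the BCAS libraries of the first group named. That SD is a wide measure, since these medians ran from 0.0014 to 0.31 with the label WT. Between the labels, the median over the members was 0.17 in the main fit, 0.15 with medians equalized and 0.19 with edgeR. The same day on both labels did not pair the libraries (correlations of deviations -0.10, 0.0051 and -0.26). In the fit with the day as replicate block, the difference of *Osgin1* between the BCAS groups had a limma p of 0.027, the adjusted calls were 1 in place of 3, and 632 genes had an unadjusted p under 0.05.

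Adjusted calls over all genes numbered, for the labels compared, 6 with no filter, 17 with DESeq2 and 0 with all 8 libraries in 1 fit. For the label WT against sham they numbered 10 with no filter and 24 with DESeq2, for the label TRPA1-KO 12, 4 and, with medians equalized, 0, and for both labels 12 and 9. Unadjusted, the label TRPA1-KO against sham gave 803 genes with no filter and 254 with DESeq2. Members with an unadjusted p under 0.05 numbered 0 with the filter at a mean of 1 CPM in the 3 comparisons that rest on *Osgin1*, whose mean of 0.615 CPM that filter removes. They numbered 2 with edgeR in the labels compared and in the label WT against sham, 0 with edgeR for both labels, and 0 with DESeq2 elsewhere than in the label WT against sham. *Gclm* had no unadjusted p under 0.05 against sham with no filter (0 members). *Hmox1* in the label TRPA1-KO against sham turned from -0.0031 to 0.0027 with medians equalized. The causes were not tested.

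Leaving out each library in turn, where a lone sham library is assumed to vary like the other groups, gave for the labels compared 1 to 29 adjusted calls, 325 to 1846 unadjusted calls and 0 to 4 members, with a median over the members of 0.072 to 0.26. For the label WT against sham it gave 0 to 45, 357 to 2013 and 1 to 4, with a median of 0.087 to 0.30. For the label TRPA1-KO it gave 0 to 1, 191 to 735 and 0 to 1, with a median of -0.033 to 0.060, and for both labels 0 to 1, 190 to 1193 and 0 to 2, with a median of 0.053 to 0.12. Small member differences changed sign: between the labels *Srxn1* (-0.038 to 0.090), *Slc7a11* (-0.081 to 0.23) and *Gclc* (-0.0026 to 0.073). For the label WT, *Nfe2l2* (-0.14 to 0.46) and *Nqo1* (-0.11 to 0.53) did. For the label TRPA1-KO, *Hmox1* (-0.28 to 0.27), *Nqo1* (-0.29 to 0.34), *Srxn1* (-0.011 to 0.11), *Prdx1* (-0.029 to 0.13), *Slc7a11* (-0.027 to 0.26) and *Txnrd1* (-0.12 to 0.025) did, and for both labels *Nqo1* (-0.20 to 0.43), *Txnrd1* (-0.026 to 0.044) and *Nfe2l2* (-0.31 to 0.12). With 1 to 15 reads of *Osgin1* and 26 to 55 of *Nqo1*, depth limits both.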

Other observations

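Beyond the members, 5 genes of the other lists, chosen after their values were seen, had their highest level in the day 7 BCAS library labelled WT. That library was the highest for 21.9% of all genes tested. *Ftl1*, the light chain of the iron store ferritin, a gene with near-identical copies whose reads are not separated here, had 509 CPM there and 197 to 242 CPM in the other 7 libraries. *Cybb*, the catalytic subunit of the phagocyte NADPH oxidase, had 61 reads there and 1 to 7 reads elsewhere, and its partner *Cyba* had 15.6 CPM against 1.54 to 5.10 CPM. *Prdx6*, a peroxiredoxin, had 285 CPM on day 7 and 205 CPM on day 10 with the label WT, and 150 to 189 CPM in the others. *Mgst1*, a microsomal glutathione transferase, had 12.4 and 7.81 CPM on those days and 2.03 to 4.89 CPM in the others. *Hmox2*, the constitutive heme oxygenase, lay between 67.7 and 75.9 CPM in all 8 libraries. These values have no replicate of the day and carry no test.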
